A study of Mus musculus with 10 samples.

Results

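The levels of 35 hematopoietic lineage transcription factors were examined in hematopoietic stem cells (HSCs) with and without *Cited2*, a transcriptional co-regulator that binds the coactivators CBP and p300. The members were taken by symbol from a table of read counts for 26146 genes, and all 35 were found there. They were ordered by the role each is best known for, as 12 regulators of stem cells, 5 of the erythroid and megakaryocytic lineages, 5 of the myeloid lineage and 13 of the lymphoid lineage, although most of them act in several lineages. LSK CD48- CD150+ bone marrow cells (Lin- Sca-1+ c-Kit+, the usual gate for mouse HSCs) were sorted from mice of 8 to 12 weeks of age without treatment, 5 of each genotype and by the study's design a separate mouse for each RNA library. *Cited2* CTL mice carry loxP-flanked *Cited2* alleles (*Cited2* fl/fl) without Cre and are labelled as wild type. *Cited2* CKO mice carry the same alleles and *Vav-iCre*, a transgene active throughout the hematopoietic system from early development, so the deletion is directed to every blood lineage and not to adult HSCs alone. The controls carry no Cre, and an effect of the transgene itself cannot be told apart from that of the deletion.

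HSCs transcribe regulators of several lineages at once, each at a low or moderate level, before any lineage is chosen. GATA2, RUNX1 with its partner CBFB, TAL1, LYL1, LMO2, LDB1, ERG and FLI1 bind together at enhancers of stem and progenitor cells, while pairs such as GATA1 and PU.1 (encoded by *Spi1*) or GFI1 and its relative GFI1B oppose each other or replace each other as cells differentiate. The E proteins encoded by *Tcf3*, *Tcf4* and *Tcf12* pair with TAL1 or LYL1 in stem cells and act alone or with EBF1 and PAX5 in lymphoid cells.

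The 10 libraries held 3058690 to 4548795 counts. In the library labelled CKO 3, *Cited2* was at 120.1 CPM (counts scaled to library totals that were normalized by TMM), which is 73.6% of the *Cited2* CTL mean, while the other *Cited2* CKO libraries were at 3.80 to 8.30 CPM and the *Cited2* CTL libraries at 101 to 222 CPM. The library labelled CKO 2 held *Xist* at 1307 CPM together with the Y-linked gene *Ddx3y* at 119 CPM, which no other library combined. Both libraries were kept in their labelled groups, and values without the library labelled CKO 3 are given where a result rests on it. *Xist* was also high in CTL 2, CTL 4 and CKO 3 (1316, 1250 and 1299 CPM), with *Ddx3y* at 0, 0 and 0.24 CPM. The remaining libraries held *Ddx3y* and little *Xist*. Leaving out CKO 3 thus also removes the only *Cited2* CKO library with high *Xist* and almost no *Ddx3y*. The part of sex in the members' values was not tested. The 10 marker genes of HSCs included some outside the gate itself. All were detected, with sums of 2119 to 2382 CPM (*Cited2* CTL) and 1971 to 2274 CPM (*Cited2* CKO). At an unadjusted p under 0.05 in edgeR, 1 was higher and 2 lower in *Cited2* CKO, against 5.8% and 7.08% of all tested genes. *Ly6a*, which encodes Sca-1, was at 131 ± 7.70 and 161 ± 31.5 CPM (SD, edgeR adjusted p = 0.321). *Kit* was at 580 ± 62.4 and 500 ± 39.0 CPM (edgeR adjusted p = 0.290). *Cd48*, whose product the gate excludes, was higher in *Cited2* CKO (21.6 ± 5.53 against 49.02 ± 9.15 CPM, SD, n = 5 per genotype, log2 fold change 1.18, edgeR adjusted p = 0.0264). Adjusted p-values are those of the quasi-likelihood F test of edgeR, corrected over all 14165 tested genes by the method of Benjamini and Hochberg. The sum of 6 mast cell and basophil markers ranged from 36.8 to 62.6 CPM over the *Cited2* CTL libraries and from 73.5 to 147 CPM over the *Cited2* CKO libraries. *Cpa3* (control mean 36.6, mean after deletion 72.0 CPM) and *Fcer1a* (4.72, then 31.3 CPM) made up most of this sum. *Ms4a2* (3.45, then 5.94 CPM) and *Prss34* (0.49, then 0.90 CPM) had higher means after deletion, from at most 45 and 9 counts per library. *Ms4a2* had an unadjusted p of 0.354 in edgeR, and *Prss34* did not pass the filter on low counts. *Mcpt8* (1.69, then 1.58 CPM) and *Gzmb* (0.75, then 0.32 CPM) were lower, from at most 29 counts per library. The part of *Cd48* expressing cells or of mast cell and basophil RNA in the members' values was not tested. In bulk RNA of this kind, fewer cells of a type and less RNA per cell cannot be told apart.

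The GC content of transcripts moved with the genotype across all genes. Among tested genes the median log2 fold change was 0.13 in the decile with the lowest GC content and -0.20 in the decile with the highest. A second estimate of each fold change was therefore corrected in each library for the trend with GC content and gene length (the GC offset). It is given beside many of the values it alters. This correction would also take away a true difference between the genotypes that runs with GC content, and the part of GC content in any single result was not tested.

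The promoters of the 6 members that are printed here were read from RefSeq (GRCm38.p6), from 250 bases before to 50 bases after the annotated start, in the direction of transcription. The *Gfi1* promoter is shown because *Gfi1* had the largest difference between the genotypes, *Tcf3* and *Tcf12* because both E protein genes were among the members with an unadjusted p under 0.05 in edgeR, and the 3 *Runx* genes because their promoters share a sequence feature. Capitals mark matches, on either strand, to the letters CANNTG (the E-box bound by TAL1, LYL1 and the E proteins), AGATAA for GATA factors, TGTGGT for RUNX factors, CGGAAG for ETS factors or AAATCA for GFI1 and GFI1B, and neighbouring matches may overlap.
Gfi1 promoter, chr5:107725756-107726055, minus strand: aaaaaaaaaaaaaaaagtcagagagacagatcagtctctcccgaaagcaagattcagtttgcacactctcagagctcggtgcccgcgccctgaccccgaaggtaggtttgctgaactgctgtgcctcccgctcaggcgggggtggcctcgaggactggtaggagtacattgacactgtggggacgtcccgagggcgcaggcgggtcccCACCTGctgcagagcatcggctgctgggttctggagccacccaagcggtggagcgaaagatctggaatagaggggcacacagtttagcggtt
Tcf3 promoter, chr10:80433586-80433885, minus strand: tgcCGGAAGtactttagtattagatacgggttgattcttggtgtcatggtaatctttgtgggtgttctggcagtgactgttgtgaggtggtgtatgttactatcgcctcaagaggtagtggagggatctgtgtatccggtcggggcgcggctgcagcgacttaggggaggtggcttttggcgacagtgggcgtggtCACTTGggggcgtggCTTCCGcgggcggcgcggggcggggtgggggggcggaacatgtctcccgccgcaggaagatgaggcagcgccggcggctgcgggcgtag
Tcf12 promoter, chr9:72111770-72112069, minus strand: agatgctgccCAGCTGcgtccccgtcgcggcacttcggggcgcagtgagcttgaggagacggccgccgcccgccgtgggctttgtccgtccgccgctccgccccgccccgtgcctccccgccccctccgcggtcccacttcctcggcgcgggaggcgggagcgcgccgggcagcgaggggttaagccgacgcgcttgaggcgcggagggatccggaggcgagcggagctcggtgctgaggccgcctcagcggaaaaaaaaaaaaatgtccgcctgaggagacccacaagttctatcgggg
Runx1 promoter, chr16:92826025-92826324, minus strand: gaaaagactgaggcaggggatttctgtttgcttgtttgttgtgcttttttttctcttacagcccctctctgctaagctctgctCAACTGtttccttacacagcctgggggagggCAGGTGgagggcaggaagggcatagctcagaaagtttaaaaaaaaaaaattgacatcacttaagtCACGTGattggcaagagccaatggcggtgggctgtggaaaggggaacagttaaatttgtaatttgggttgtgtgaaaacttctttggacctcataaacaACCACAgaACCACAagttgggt
Runx2 promoter, chr17:44814578-44814877, minus strand: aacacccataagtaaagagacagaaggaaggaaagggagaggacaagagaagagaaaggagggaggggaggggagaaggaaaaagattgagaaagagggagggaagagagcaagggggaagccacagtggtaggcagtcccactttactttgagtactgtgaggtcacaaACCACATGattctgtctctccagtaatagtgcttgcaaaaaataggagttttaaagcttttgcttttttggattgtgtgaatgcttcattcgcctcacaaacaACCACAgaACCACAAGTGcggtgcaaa
Runx3 promoter, chr4:135120395-135120694, plus strand: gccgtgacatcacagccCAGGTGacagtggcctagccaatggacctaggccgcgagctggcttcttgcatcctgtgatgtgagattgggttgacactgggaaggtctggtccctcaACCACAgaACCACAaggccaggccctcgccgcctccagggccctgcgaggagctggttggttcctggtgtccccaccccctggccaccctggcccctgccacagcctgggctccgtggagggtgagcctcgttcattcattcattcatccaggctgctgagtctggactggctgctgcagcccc

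Of the 35 members, 29 had an entry in the RefSeq table. An E-box was found in the promoters of 18 of them (62.1%) against 72.3% of all 32851 promoters of the same length, and a GATA match in 1 (3.45% against 11.2%). The RUNX letters were found in 5 members (17.2% against 16.8% of all promoters), namely *Runx1*, *Runx2*, *Runx3*, *Klf1* and *Ebf1*. ETS matches stood in 4 members (13.8% against 16.9%) and GFI1 matches in 3 (10.3% against 13.96%). The members' promoters thus held these letters about as often as other promoters or less often, which was not tested. The median GC content was 61.7% in the members' promoters and 52.7% in all promoters. The part of this difference in the shares was not tested. All 3 *Runx* promoters carried a pair of RUNX matches, on the strand opposite to the one printed, within an identical run of 18 bases, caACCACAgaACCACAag, which begins at +26 in *Runx1*, +21 in *Runx2* and -136 in *Runx3*, counted from the annotated start at 0. This run stood in 4 of the 32851 promoters, the fourth being that of *Gm16225*, which overlaps the *Runx3* promoter on the other strand. Any pair of RUNX matches on the same strand with 2 bases between them stood in 7 promoters in all. The *Gfi1*, *Tcf3* and *Tcf12* promoters each held 1 E-box, and that of *Tcf3* also held 2 ETS matches. A match of letters is a description of the sequence and says nothing about binding in these cells.

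The levels of the members in *Cited2* CTL HSCs were compared per length, as TPM (counts divided by the deposited gene length and scaled to the same sum in each library). *Lmo2*, whose product bridges TAL1, LYL1 and GATA factors, had the highest level at 480 ± 14.4 TPM (SD, n = 5), followed by *Nfe2*, a megakaryocytic bZIP factor, at 429 ± 43.4 TPM. *Lyl1* (244 ± 21.1 TPM), *Myb*, needed for definitive hematopoiesis (240 ± 17.2 TPM), and *Gata2* (231 ± 25.2 TPM) came next. Of the 10 members with the highest TPM, 7 belonged to the stem group. The others were *Nfe2*, *Spi1* (204 ± 8.90 TPM) and *Gfi1b*, a repressor of the erythroid and megakaryocytic lineages (140 ± 26.0 TPM).

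The lineage regulators spanned a wide range below these. *Gata1*, the erythroid counterpart of *Gata2*, was at 79.7 ± 18.5 TPM, *Runx1* at 68.6 ± 5.47 TPM and the erythroid regulator *Klf1* at 20.8 ± 6.72 TPM. *Gfi1*, a repressor that restrains HSC proliferation and directs granulocyte development, was at 12.2 ± 6.01 TPM, with *Irf8*, a regulator of monocytes and dendritic cells, beside it at 13.1 ± 3.02 TPM. The 4 lowest members were the granulocyte regulator *Cebpa* (3.69 ± 2.01 TPM), the B cell regulators *Ebf1* (1.78 ± 1.02 TPM) and *Pax5* (1.37 ± 1.32 TPM), and the T cell regulator *Bcl11b* (1.12 ± 0.89 TPM). Neighbours in the order mostly did not separate, since the ranges of the 5 *Cited2* CTL libraries overlapped for 31 of the 34 adjacent pairs. The exceptions were *Nfe2* above *Lyl1*, *Fli1* above *Etv6* and *Gfi1* above *Cebpa*.

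**Figure D1:**
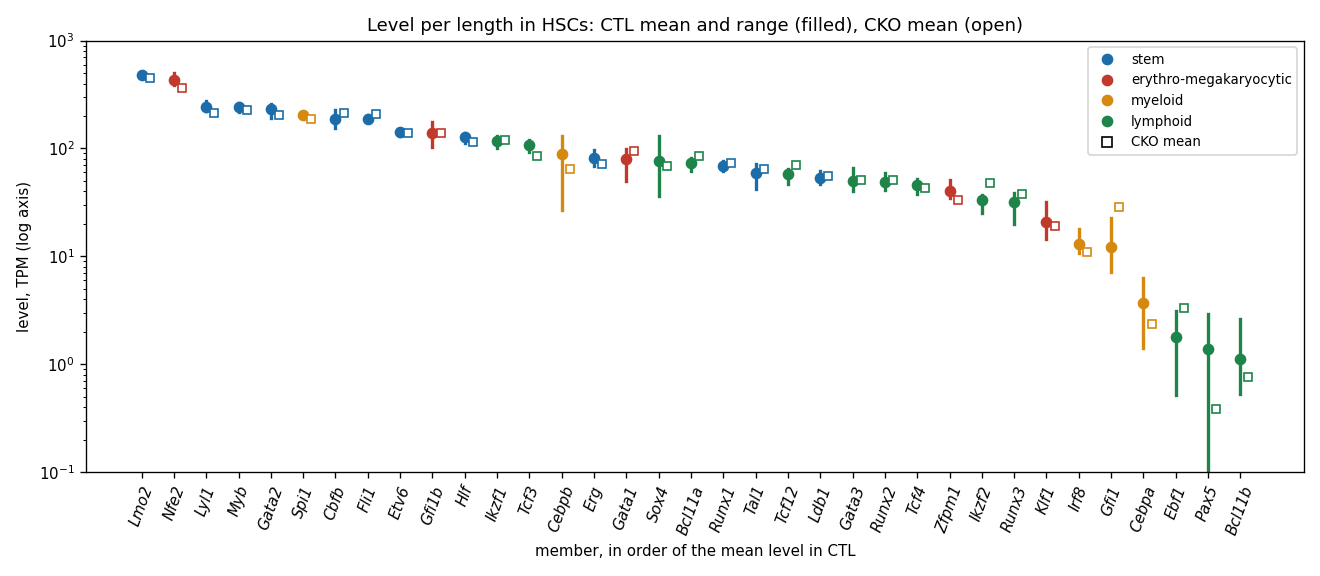
Level of the 35 members in TPM on a log axis, ordered by the mean over the 5 *Cited2* CTL libraries (filled circles, with lines from the lowest to the highest library) and coloured by role, with the mean of the 5 *Cited2* CKO libraries as open squares. *Lmo2* and *Nfe2* lie above 400 TPM, while *Cebpa*, *Ebf1*, *Pax5* and *Bcl11b* lie below 4 TPM, and the line of *Pax5* runs to 0, off the axis.

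*Ebf1* and *Pax5* did not pass the filter on low counts. *Ebf1* had 2 to 10 counts in the *Cited2* CTL libraries and 1 to 32 in the *Cited2* CKO libraries, and *Pax5* had 0 to 6 and 0 to 2. A count of 0 of *Pax5* allows up to 1.00 CPM in CTL 1 and up to 0.691 CPM in CKO 5, taking 3 counts as the limit and counting error alone. The other 33 members were compared between the genotypes. None was called by edgeR (adjusted p under 0.05 with a fold change above 20%), a rule that called 0.226% of all 14165 tested genes. At an unadjusted p under 0.05, 7 of the 33 members differed, against a background of 12.9% of tested genes. *Ikzf2*, *Gfi1*, *Tcf12* and *Bcl11a* were the 4 with the higher level in *Cited2* CKO (5.8% of tested genes), and *Tcf3*, *Nfe2* and *Lyl1* the 3 with the lower level (7.08% of tested genes). The Wald test of DESeq2 with the same thresholds called 3 members, against 1.36% of the 25001 genes it tested. Those 25001 genes include many of low counts that edgeR left out, so this share is not over the same genes as that of edgeR. The 3 members were *Ikzf2* (adjusted p = 0.0122), *Gfi1* (adjusted p = 0.0168) and *Tcf3* (adjusted p = 0.0429), and limma-voom called 0. The CPM of the genotypes did not overlap for 1 member, *Lyl1*, against 3.33% of tested genes. It was lower in *Cited2* CKO, where 1.98% of tested genes were lower without overlap, and 0 members were higher without overlap, against 1.35%.

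**Figure D2:**
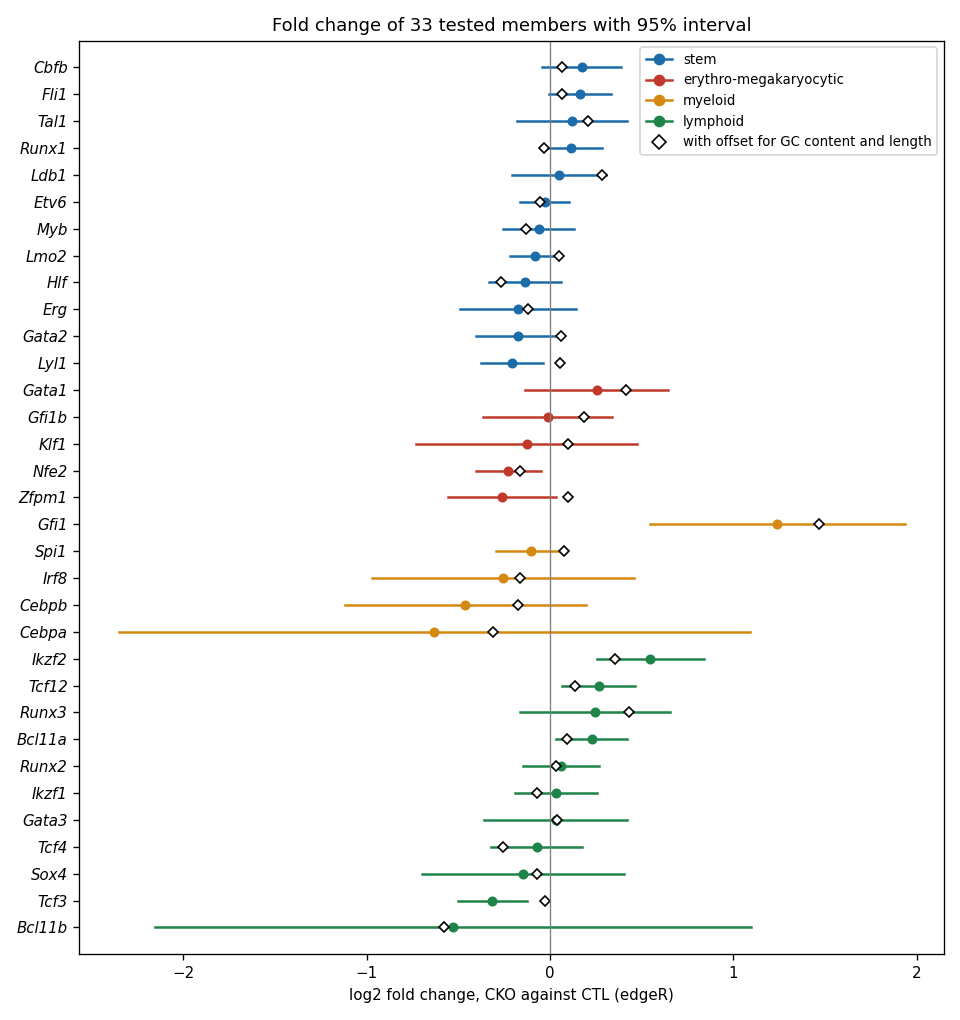
Log2 fold change (*Cited2* CKO against *Cited2* CTL, edgeR) of the 33 tested members with 95% intervals, coloured by role, and the estimate with the GC offset as open diamonds. The 12 stem members lie between -0.21 and 0.17, *Gfi1* stands apart at 1.24, and the offset moves *Tcf3* from -0.31 to -0.03.

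The intervals show which differences the data could hide. For all 12 stem members the 95% interval of the fold change lay within 1.5-fold in either direction, and for 3 of them within 1.2-fold. Over all 33 members, 23 intervals lay within 1.5-fold and 29 within 2-fold. The 10 members whose interval reached beyond 1.5-fold were *Gata1* and *Klf1*, *Cebpa*, *Cebpb*, *Gfi1* and *Irf8*, and *Runx3*, *Ikzf2*, *Bcl11b* and *Sox4*. Of the myeloid regulators, only *Spi1* was inside 1.5-fold. An interval can reach beyond 1.5-fold through its width or through a large estimate, as for *Ikzf2* (log2 fold change 0.55, SE 0.14).

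Among the stem regulators, the median log2 fold change was -0.04, with 5 higher and 7 lower in *Cited2* CKO, against a median of 0.01 over all tested genes, of which 51% were higher. *Lyl1*, a partner of the E proteins (GRCm38 chromosome 8, 84701457 to 84704715), was at 217, 182, 187, 171 and 166.7 CPM in CTL 1 to CTL 5 and at 156.9, 162, 151, 166.7 and 163.8 CPM in CKO 1 to CKO 5. The lowest *Cited2* CTL library lay just above the highest *Cited2* CKO library, so the groups did not overlap but met at 166.7 CPM. For *Lyl1* the log2 fold change was -0.21 (SE 0.08, unadjusted p = 0.0203, edgeR adjusted p = 0.300). With size factors from DESeq2 the groups overlapped. The *Lyl1* transcript has a GC content of 62.6%, among the highest of the members, and with the GC offset its log2 fold change was 0.05. *Nfix* overlaps *Lyl1* on the opposite strand and had 105 to 193 counts in *Cited2* CTL and 68 to 155 in *Cited2* CKO, and whether counting used the strand is not given in the sources used here.

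*Gata2*, which HSCs need for their survival and renewal, was at 348, 320.5, 349.2, 297 and 257 CPM in CTL 1 to CTL 5 and at 243, 268, 267, 349.5 and 264 CPM in CKO 1 to CKO 5. CKO 4 stood with the highest controls, and the other 4 *Cited2* CKO libraries lay below every control except CTL 5. The log2 fold change was -0.18 (SE 0.11, edgeR adjusted p = 0.518), and 0.06 with the GC offset. *Runx1*, the DNA-binding subunit of core binding factor, was at 197, 215, 202, 214 and 232 CPM in CTL 1 to CTL 5 and at 229.8, 258, 219, 243 and 197 CPM in CKO 1 to CKO 5. The groups overlapped over most of their range, with a log2 fold change of 0.11 (SE 0.08, edgeR adjusted p = 0.598), and -0.03 with the GC offset. *Cbfb*, its partner, was at 230.3 ± 31.6 and 260.0 ± 29.2 CPM (log2 fold change 0.17, and 0.06 with the GC offset). The ETS factor *Fli1* was at 244 CPM (range 229 to 263) and 274 CPM (239 to 314) (log2 fold change 0.16, and 0.06 with the GC offset).

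Without the GC offset, the remaining stem members differed by 0.17 or less on the log2 scale in either direction. With the offset, the log2 fold changes were 0.28 for *Ldb1* (unadjusted p = 0.0311 in edgeR), 0.21 for *Tal1* and -0.265 for *Hlf*. Those of *Erg*, *Myb*, *Lmo2* and *Etv6* were then -0.12, -0.13, 0.05 and -0.05. The values that follow are without the offset. *Tal1* and *Ldb1*, which bind LMO2 in the same complex, had log2 fold changes of 0.12 and 0.05, and *Lmo2* itself -0.08. *Erg*, an ETS factor that HSCs need for their maintenance, had -0.17, and *Hlf*, a bZIP factor that marks HSCs, -0.14. *Myb* had -0.06, and *Etv6*, a repressor that adult HSCs depend on, was closest to 0 at -0.03. *Lmo2* and *Etv6* were also among the least variable members, with a coefficient of variation of 4.36% and 5.54% over the *Cited2* CTL libraries.

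**Figure D3:**
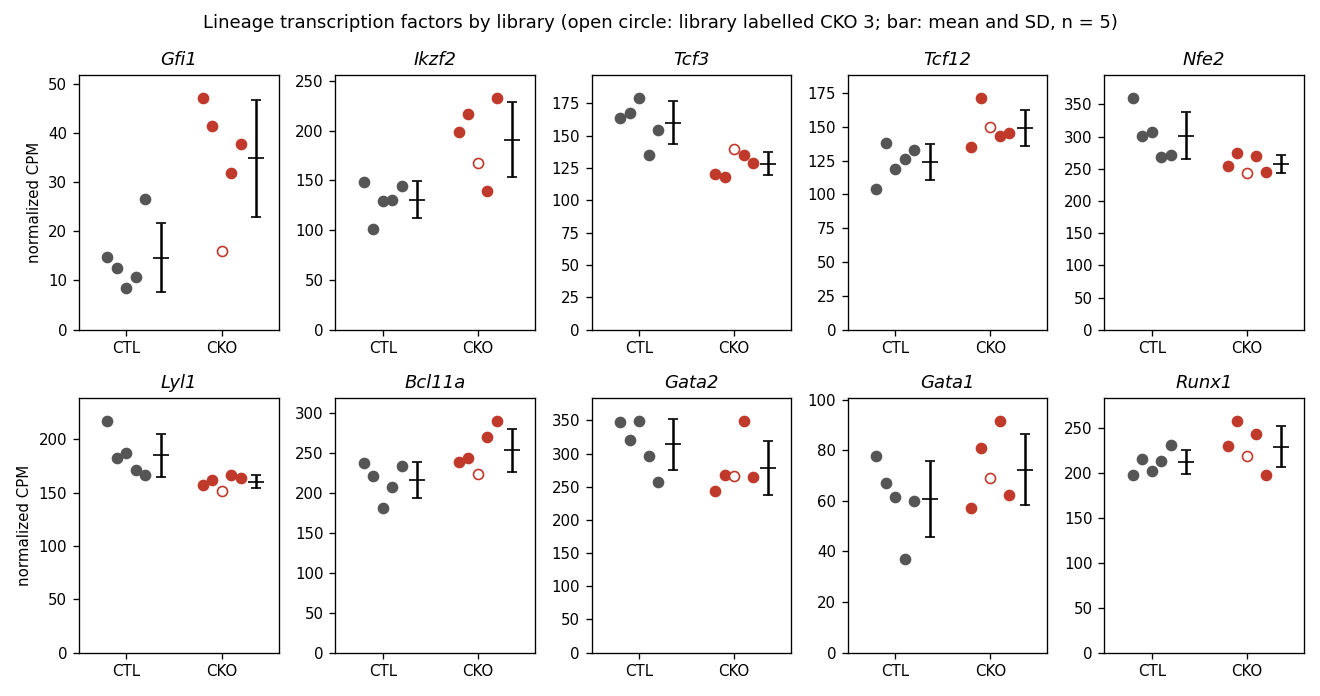
Normalized CPM of 10 members in each of the 5 *Cited2* CTL (grey) and 5 *Cited2* CKO (red) libraries, with the mean and SD beside the points and the library labelled CKO 3 as an open circle. In the *Gfi1* panel 4 of the 5 *Cited2* CKO libraries lie above every *Cited2* CTL library and CKO 3 lies within them, while in the *Lyl1* panel the genotypes only just separate.

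The erythroid and megakaryocytic regulators had a median log2 fold change of -0.13, with 1 of 5 higher in *Cited2* CKO, and a median of 0.10 with the GC offset. *Nfe2* (GRCm38 chromosome 15, 103248212 to 103258403) was at 360, 300.1, 307, 268 and 272 CPM in CTL 1 to CTL 5 and at 254, 274, 243, 269.6 and 245 CPM in CKO 1 to CKO 5. The *Cited2* CKO libraries formed a narrow range at the lower end of the controls and overlapped with 2 of them. For *Nfe2* the log2 fold change was -0.23 (SE 0.08, unadjusted p = 0.0148, edgeR adjusted p = 0.271), and -0.16 with the GC offset.

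*Gata1* was at 77.9, 66.9, 61.4, 37.0 and 59.95 CPM in CTL 1 to CTL 5 and at 57.3, 81.1, 69.3, 91.7 and 62.2 CPM in CKO 1 to CKO 5. The groups overlapped, with the lowest value in CTL 4 and the highest in CKO 4. For *Gata1* the log2 fold change was 0.26 (SE 0.18, edgeR adjusted p = 0.604), and 0.42 with the GC offset (unadjusted p = 0.0413 in edgeR). *Zfpm1*, which encodes the GATA1 cofactor FOG1, had a log2 fold change of -0.26, and *Klf1* and *Gfi1b* had -0.13 and -0.01.

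The ratio of *Gata2* to *Gata1* within each library was computed from their TPM, and it is given as a description that was chosen with the values known. On the log2 scale it was 1.31, 1.42, 1.66, 2.16 and 1.25 (CTL 1 to CTL 5) and 1.24, 0.88, 1.101, 1.09 and 1.24 (CKO 1 to CKO 5). The ratio was lower in every *Cited2* CKO library than in any *Cited2* CTL library, with means of 1.56 ± 0.37 and 1.11 ± 0.15 (SD, n = 5), but the highest *Cited2* CKO value of 1.242 nearly met the lowest *Cited2* CTL value of 1.255. As a share of the summed TPM of the 3 GATA genes, *Gata2* made up 64.2 ± 4.01% and 58.3 ± 2.78%, *Gata1* 22.0 ± 3.97% and 27.1 ± 2.48%, and *Gata3* 13.8 ± 1.73% and 14.6 ± 3.72%. The log2 ratio of *Spi1* to *Gata1*, the pair that divides myeloid from erythroid fate, averaged 1.39 ± 0.43 (*Cited2* CTL) and 1.00 ± 0.31 (*Cited2* CKO), with groups that overlapped.

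Among the myeloid regulators, *Gfi1* was the exception to a group whose other 4 members had negative log2 fold changes. *Gfi1* (GRCm38 chromosome 5, 107716657 to 107726036) was at 14.7, 12.6, 8.53, 10.7 and 26.5 CPM in CTL 1 to CTL 5, from 29 to 121 counts, and at 47.1, 41.3, 16.1, 31.7 and 37.8 CPM in CKO 1 to CKO 5, from 68 to 198 counts. Only CKO 3, the library that retained *Cited2* RNA, lay within the range of the controls, and CTL 5 stood above the other controls. Its log2 fold change was 1.24 (SE 0.32, 95% interval 0.55 to 1.93, unadjusted p = 0.00182, edgeR adjusted p = 0.123). Without the library labelled CKO 3 it was 1.42, with an adjusted p of 0.0527 in edgeR, and the groups no longer overlapped. With the GC offset it was 1.47 (unadjusted p = 5e-04 and adjusted p = 0.194 in edgeR).

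Neutrophil markers and the antisense gene at this locus were read beside *Gfi1*. The sum of 6 neutrophil markers was highest in CTL 5 at 337 CPM, the control with the most *Gfi1*. In the *Cited2* CKO libraries the same sum was 63.2, 54.7, 158, 183 and 209.9 CPM in CKO 1 to CKO 5, so the 4 libraries with *Gfi1* above every control held both low and high sums. The part of neutrophil RNA in the values of *Gfi1* was not tested. *A430072P03Rik*, which overlaps *Gfi1* on the opposite strand, had 5 to 28 counts in *Cited2* CTL and 3 to 30 in *Cited2* CKO. In the plot of values by library, the 4 *Cited2* CKO libraries with *Gfi1* above every control were those other than CKO 3. A relation between *Gfi1* and the level of *Cited2* RNA was not tested.

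The other myeloid regulators showed no difference that passed a test, and the intervals of all except *Spi1* reached beyond 1.5-fold. *Spi1*, whose product PU.1 drives myeloid and lymphoid fates, was at 114 ± 4.34 and 106 ± 11.6 CPM (log2 fold change -0.10, and -0.04 without the library labelled CKO 3), and *Irf8* at 15.6 ± 3.37 and 13.0 ± 6.20 CPM (log2 fold change -0.26, and -0.07 without that library). *Cebpb*, an emergency granulopoiesis factor, was at 56.0 ± 25.04 and 40.9 ± 10.3 CPM (log2 fold change -0.46, 95% interval -1.12 to 0.19). *Cebpa* was at 4.09 ± 2.22 and 2.63 ± 2.45 CPM, from at most 28 counts per library and 0 in CKO 5 (which allows up to 0.691 CPM). The median over the 5 myeloid members was -0.26, and -0.07 without the library labelled CKO 3.

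*Gfi1* was also set against *Gfi1b*, since GFI1 and GFI1B bind the same DNA letters and repress each other's genes. The log2 ratio of their TPM was -3.52, -4.06, -4.28, -4.05 and -2.20 in CTL 1 to CTL 5 and -1.38, -1.79, -3.61, -2.77 and -2.07 in CKO 1 to CKO 5. *Gfi1b* remained the more abundant of the pair in every library. *Gfi1* made up 8.43 ± 5.43% of their summed TPM in *Cited2* CTL and 17.9 ± 7.93% in *Cited2* CKO, and the groups overlapped through CTL 5 and CKO 3.

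Among the 11 tested lymphoid regulators, 7 were higher and 4 lower, with a median log2 fold change of 0.03. *Ikzf2*, which encodes the zinc finger factor Helios, expressed in HSCs as well as in T cells (GRCm38 chromosome 1, 69531214 to 69687245), was at 149, 101, 129, 129.9 and 145 CPM in CTL 1 to CTL 5 and at 198, 216, 167, 139 and 233 CPM in CKO 1 to CKO 5. All *Cited2* CKO libraries except CKO 4 lay above every control. Its log2 fold change was 0.55 (SE 0.14, 95% interval 0.25 to 0.84, unadjusted p = 0.00133, edgeR adjusted p = 0.117), and 0.59 without the library labelled CKO 3. The *Ikzf2* transcript has a GC content of 40.1%, the lowest of the members, and with the GC offset the log2 fold change was 0.35 (unadjusted p = 0.0931 in edgeR). Its relative *Ikzf1*, which encodes Ikaros, was at 257 ± 29.9 and 263 ± 38.9 CPM (log2 fold change 0.03).

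Of the E protein genes, *Tcf3* had a negative and *Tcf12* a positive log2 fold change, and neither was called by edgeR. *Tcf3*, which encodes E2A (GRCm38 chromosome 10, 80409514 to 80433647), was at 164, 167, 179, 135 and 154 CPM in CTL 1 to CTL 5 and at 120.5, 118, 139.7, 135 and 129 CPM in CKO 1 to CKO 5. CTL 4 lay within the range of *Cited2* CKO, and the other 4 controls lay above every *Cited2* CKO library. Its log2 fold change was -0.31 (SE 0.09, 95% interval -0.50 to -0.13, unadjusted p = 0.00293, edgeR adjusted p = 0.149), and -0.35 without the library labelled CKO 3. *Tcf12*, which encodes HEB (GRCm38 chromosome 9, 71842688 to 72111871), was at 104, 138, 119, 126 and 133 CPM in CTL 1 to CTL 5 and at 135, 171, 150.1, 143 and 145 CPM in CKO 1 to CKO 5. CTL 2 reached into the lower end of the *Cited2* CKO range, and the other controls lay below it. The log2 fold change of *Tcf12* was 0.27 (SE 0.09, unadjusted p = 0.0123, edgeR adjusted p = 0.254). *Tcf4*, the third E protein gene, was at 147 ± 19.1 and 139 ± 21.1 CPM (log2 fold change -0.07).

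The summed TPM of the 3 E protein genes averaged 211 ± 13.5 (*Cited2* CTL) and 199 ± 9.10 (*Cited2* CKO), and their shares of it were computed after these values were seen. *Tcf3* made up 50.7 ± 2.50% (range 48.3 to 54.6%) of the sum in *Cited2* CTL and 43.2 ± 3.17% (39.1 to 47.2%) in *Cited2* CKO. *Tcf12* made up 27.7 ± 3.45% (22.96 to 31.6%) and 35.1 ± 2.64% (33.1 to 39.7%), and *Tcf4* 21.6 ± 2.22% and 21.6 ± 2.95%. The ranges of the *Tcf3* share and of the *Tcf12* share did not overlap between the genotypes, which restates the values that led to the choice of these shares and carries no test. The transcripts differ in GC content (61.0% for *Tcf3*, 44.4% for *Tcf12*), and with the GC offset the log2 fold changes were -0.03 and 0.14. Among the 7 members with an unadjusted p under 0.05 in edgeR, the offset moved the estimate of *Tcf3* furthest.

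**Figure D4:**
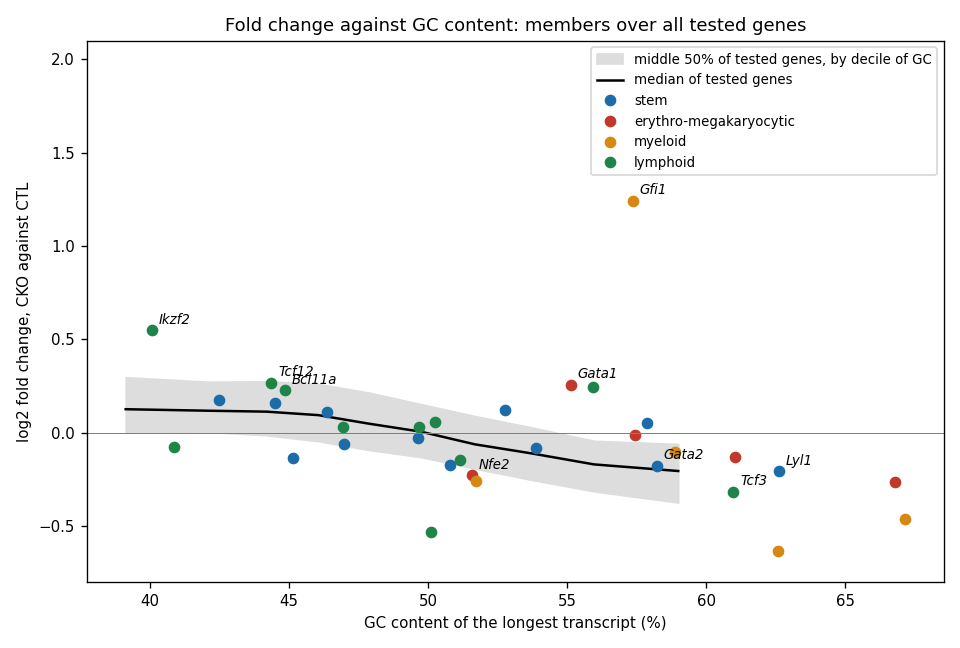
Log2 fold change (*Cited2* CKO against *Cited2* CTL) against the GC content in percent of the longest transcript, for the 33 tested members coloured by role, over the median (line) and the middle 50% (grey band) of all tested genes by decile of GC content. The median falls from 0.13 to -0.20, *Ikzf2* at 40.1% GC lies above the band on the left, *Tcf3* and *Lyl1* lie to the right of the last decile's median, and *Gfi1* at 57.4% GC lies far above the band.

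*Bcl11a*, which encodes a repressor of fetal globin genes that B cell development also needs, was at 238, 222, 181, 207 and 233 CPM in CTL 1 to CTL 5 and at 239, 243, 223, 270.5 and 290.3 CPM in CKO 1 to CKO 5. The libraries overlapped only through CKO 3, which lay within the controls. For *Bcl11a* the log2 fold change was 0.23 (SE 0.09, unadjusted p = 0.0249, edgeR adjusted p = 0.320), 0.27 without the library labelled CKO 3, and 0.09 with the GC offset. *Bcl11b* was at 3.72 ± 2.95 and 2.57 ± 1.48 CPM, from at most 30 counts per library. *Gata3*, needed for T cells and for HSC cycling, was at 67.6 ± 14.5 and 68.9 ± 17.3 CPM (log2 fold change 0.03). *Runx2* and *Runx3*, the relatives of *Runx1*, had log2 fold changes of 0.06 and 0.25, and *Runx3* had 0.43 with the GC offset (unadjusted p = 0.0365 in edgeR). *Sox4*, a factor of early B cell development, was the most variable of the well expressed lymphoid members in *Cited2* CTL, with 46.5 to 162 CPM (*Cited2* CTL) and 57.7 to 109 CPM (*Cited2* CKO).

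The shares of the *Runx* genes in their summed TPM, computed without the GC offset, were nearly equal in both genotypes. With the offset the log2 fold changes were -0.03 for *Runx1*, 0.03 for *Runx2* and 0.43 for *Runx3*. A relation of the shares to the run of 18 bases in their promoters was not tested. *Runx1* made up 46.2 ± 4.35% and 45.5 ± 2.39%, *Runx2* 32.6 ± 2.26% and 31.4 ± 3.92%, and *Runx3* 21.2 ± 4.78% and 23.1 ± 3.05%. The summed level was 149 ± 14.9 TPM in *Cited2* CTL and 162 ± 9.82 TPM in *Cited2* CKO.

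Without the library labelled CKO 3, 8 of the 33 members had an unadjusted p under 0.05 in edgeR, against 11.4% of tested genes, and 0 were called, against 0.292%. The CPM of 3 members then did not overlap between the genotypes, *Lyl1* being lower and *Gfi1* and *Bcl11a* higher in *Cited2* CKO, against 5.03% of tested genes. The added member was *Fli1* (log2 fold change 0.21, unadjusted p = 0.0183 in edgeR). Leaving out the libraries labelled CKO 2 and CKO 3 together, a choice made after the data were seen, left 5 members with an unadjusted p under 0.05 in edgeR (*Gfi1*, *Ikzf2*, *Tcf3*, *Bcl11a* and *Nfe2*), against 9.28% of tested genes. With the GC offset, 4 members had an unadjusted p under 0.05, against 6.95% of tested genes, and these were *Gfi1*, *Gata1*, *Runx3* and *Ldb1*. With the GC offset 0 members were called, against 0.0565% of tested genes. *Gfi1* was the only member under that threshold both with and without the offset.

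Genes that lineage regulators bind, pair with or are known to control were followed in 5 lists, and none of their members was called by edgeR (0.226% of all tested genes). Of 49 tested partners and relatives of the members, 4 were higher and 3 lower at an unadjusted p under 0.05 in edgeR. Over all tested genes these shares were 5.8% and 7.08%, and whether any list differs from them was not tested. *Id2*, an inhibitor that sequesters E proteins, was at 25.2 ± 2.82 CPM (*Cited2* CTL) and 36.2 ± 9.66 CPM (*Cited2* CKO) without overlap (log2 fold change 0.52, edgeR adjusted p = 0.270). *Klf6*, a relative of *Klf1*, had a log2 fold change of 0.38. Of 12 tested erythroid products, 0 had an unadjusted p under 0.05, against 12.9% of all tested genes. The smallest p-values belonged to the heme pathway genes *Blvrb* (log2 fold change -0.23) and *Urod* (log2 fold change -0.14).

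Of 19 tested megakaryocytic products, 3 were higher and 1 lower at an unadjusted p under 0.05 in edgeR, against 5.8% and 7.08% of all tested genes. *F2r*, a thrombin receptor, was at 227 ± 22.7 and 313 ± 49.4 CPM without overlap (log2 fold change 0.46, edgeR adjusted p = 0.0904). DESeq2 called all 3 of the higher genes, *F2r* (adjusted p = 0.00282), *Rab27b* (adjusted p = 0.0047) and *Plek* (adjusted p = 0.012). The 1 lower gene, which is not reported here, also had an adjusted p under 0.05 in DESeq2. In edgeR the log2 fold changes of *Rab27b* and *Plek* were 0.61 and 0.40. With the GC offset they were 0.42 and 0.26, and that of *F2r* was 0.40. DESeq2 was run without this offset. It called 0.592% of all the genes it tested as higher.

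Of 18 tested myeloid products, 3 were higher and 1 lower at an unadjusted p under 0.05 in edgeR, against 5.8% and 7.08% of all tested genes. The smallest p-values belonged to the integrin gene *Itgam* (17.8 ± 6.77 and 34.6 ± 15.9 CPM, log2 fold change 0.95) and the lysosomal gene *Cd68* (log2 fold change 0.59). Among 12 tested lymphoid products, 1 was higher and 1 lower at the same threshold, beside the same shares of all tested genes. *Flt3*, the cytokine receptor of multipotent and lymphoid progenitors, was at 123 ± 18.5 and 96.0 ± 8.05 CPM (log2 fold change -0.36, edgeR adjusted p = 0.194). *Satb1*, a chromatin organizer of lymphoid progenitors, was at 23.2 ± 6.43 and 39.3 ± 15.9 CPM (log2 fold change 0.75, adjusted p = 0.312 in the same test), and CKO 3 at 15.8 CPM lay below every control.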

How the data were processed

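RNA-seq of sorted HSCs covered 5 *Cited2* CTL and 5 *Cited2* CKO mice, grouped by genotype from their labels. The authors used HISAT2 (genome GRCm38) and Rsubread, and the deposited values are raw counts of single-ended reads per gene with gene lengths. Their annotation, use of strand and handling of duplicates or multiply matching reads are not given in the sources used here. Members and lists were chosen with earlier results of these data known.

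Counts were tested over the whole table in R 4.3.3 with edgeR 4.0.16 (filterByExpr, TMM, robust quasi-likelihood F test, Benjamini-Hochberg adjustment over 14165 genes, called at an adjusted p under 0.05 with more than 20% change). The biological coefficient of variation was 25.3%. GC content came from the longest GENCODE transcript, and the offset was a loess fit per library (span 50%). On simulated counts edgeR recovered 187 of 200 changed genes with 10 false calls. These were 88 of 100 genes changed 2-fold and 99 of 100 changed 4-fold, all of moderate or high counts. Smaller changes, such as those of most members, and changes in genes of low counts were not simulated. Totals of 3058690 to 4548795 counts limit the precision of low genes. Described in full were members with an unadjusted p under 0.05 or no overlap, *Gata1*, *Gata2* and *Runx1*, and the 2 listed genes with the smallest p in each list, of which 1 is not reported here. Alternatives were DESeq2 1.42.0, limma-voom 3.58.1, other size factors and filters, the GC and length offset, the replicate number as a block, a surrogate variable (sva 3.50.0) and each library left out. Leaving out the libraries labelled CKO 2 and CKO 3 together was added after the data were seen.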

Additional observations from a re-analysis of the deposited data

Results flagged for a closer look

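Within 70 groups of 5 libraries (35 members in each genotype), 4 values stood apart from the others of their group by more than Dixon's 95% limit, which chance alone passes in about 1 of 20 groups. *Gata2* was at 349.5 CPM in CKO 4, while the other *Cited2* CKO libraries lay between 243 and 268 CPM. The log2 fold change of *Gata2* without CKO 4 was -0.27 (unadjusted p = 0.00858 and edgeR adjusted p = 0.188). Leaving out the highest *Cited2* CKO value lowers this estimate by construction. With any other single library left out, it ran from -0.24 (without CTL 5) to -0.13 (without CKO 1). *Zfpm1* was at 70.9 CPM in CTL 5 against 51.2 to 55.8 CPM in the other controls. *Bcl11b* was at 8.82 CPM in CTL 3 against 1.77 to 3.72 CPM in the other controls, and at 0 CPM in CKO 5 against 2.84 to 3.80 CPM in the other *Cited2* CKO libraries, in each case from at most 30 counts. The causes were not tested.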

How the results depend on the processing

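Among the members' log2 fold changes under the alternatives, 619 values stayed on the same side of 0 and of the threshold, 4 became called (*Ikzf2*, *Gfi1* and *Tcf3* by DESeq2, and *Gfi1* with the GC offset and the replicate block together, log2 fold change 1.49, adjusted p = 0.0459 in edgeR) and 35 changed sign. The number of called genes, 32 in the main test, was 341 by DESeq2, 8 with the GC offset, 12 with the GC offset and the replicate block, 50 with 1 surrogate variable, and 8 (without CKO 2) to 42 (without CKO 3) when a library was left out. The number of called members was 3 by DESeq2 and 1 with the GC offset and block, and the number at an unadjusted p under 0.05 was 4 with the GC offset and 6 to 9 with a library left out. Members without overlap numbered 0 with the size factors of DESeq2, 3 without the libraries labelled CKO 2 and CKO 3, and 1 to 3 with a library left out. The median of the erythroid and megakaryocytic members was 0.10 with the GC offset, 0.13 with the offset and block, and -0.22 to 0.07 with a library left out. Leaving out a library gave medians of -0.07 to -0.02 for the stem, -0.35 to -0.07 for the myeloid and -0.0033 to 0.07 for the lymphoid members.

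With the GC offset, 9 members changed sign, and the sign with the replicate block added was the same: *Gata2* (0.0587 and 0.0614), *Runx1* (-0.0338 and -0.0336), *Lmo2* (0.0466 and 0.0458), *Lyl1* (0.0545 and 0.0607), *Gfi1b* (0.186 and 0.186), *Klf1* (0.0969 and 0.131), *Zfpm1* (0.0985 and 0.0884), *Spi1* (0.0751 and 0.0721) and *Ikzf1* (-0.0697 and -0.0673). With a library left out, the log2 fold change crossed 0 for *Ldb1* (-0.0042 to 0.12), *Gfi1b* (-0.124 to 0.0776), *Klf1* (-0.233 to 0.0731), *Gata3* (-0.10 to 0.15), *Ikzf1* (-0.0407 to 0.0736), *Bcl11b* (-0.719 to 0.0584) and *Sox4* (-0.33 to 0.12). Without the libraries labelled CKO 2 and CKO 3, *Ikzf1* was at -0.0035 and *Sox4* at 0.0198. The cause was not tested for any of these. The numbers 1 to 5 that both genotypes share did not pair the libraries: the deviations of same-numbered libraries correlated at 0.01, -0.09, 0.21, 0.0027 and 0.19 over genes, 1 of 5 correlated best with its own number, and the replicate block alone called 24 genes and 0 members.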
